A study of Mus musculus with 11 samples.

Results

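Described here are 10 genes that carry glucose into the cell and through glycolysis to lactate: the transporter gene Slc2a1, the hexokinases Hk1 and Hk2, the phosphofructokinases Pfkl, Pfkm and Pfkp, and Aldoa, Pgk1, Eno1 and Ldha. They were chosen by name for their place in the pathway, with earlier results of these data known. All 10 were found among the 24062 gene symbols listed for each library. RNA-seq was performed on mesenchymal cells taken from mouse lungs at embryonic day 15 and grown on plastic. The 3 groups were WT (4 libraries), Sp3+/- (4 libraries) and Sp3-/- (3 libraries), which carry both, 1 or no working copies of the gene for the transcription factor Sp3. The study methods state that cells were enriched by rapid attachment to plastic and passaged. The paper describes the profiled cells as primary and brings in conditionally immortalised SV40ts cells for separate work on proliferation. The labels do not say whether libraries of a genotype came from separate embryos, litters or cultures, so that p-values measure only the spread between these libraries.

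Glycolysis splits glucose into pyruvate, and many proliferating cells, fetal cells among them, turn much of that pyruvate into lactate even when oxygen is present. Hexokinase traps glucose as glucose 6-phosphate, phosphofructokinase commits the sugar to the pathway, and the later enzymes recover ATP. Sp3 and its relative Sp1 bind GC boxes, and several glycolytic genes are also textbook targets of the hypoxia-inducible factor HIF-1 and of MYC.

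Between 9849111 and 59297495 reads were counted on genes per library, and levels are given as CPM, read counts scaled to an equal library total, after TMM scaling. Sp3 itself was at 92.0, 60.7, 107 and 78.8 CPM in WT libraries 468-4, 685-2, 697-1 and 697-3, at 51.8, 63.2, 71.6 and 56.2 CPM in Sp3+/- libraries 468-3, 685-5, 685-7 and 697-4, and at 18.9, 18.3 and 14.4 CPM in Sp3-/- libraries 685-1, 697-2 and 697-5. The Sp3-/- libraries were thus all below the rest, as labelled, while WT and Sp3+/- overlapped. Some titles carry an unexplained ending, 2 or 3, which all 3 Sp3-/- libraries lack and of the others only WT 468-4 and Sp3+/- 697-4. For 697-4 the name of the deposited counts carries the ending 2, whereas its title, which was used here, has none. The title suffix thus went nearly with the genotype, and values from a fit of all 11 libraries with it as a covariate are given beside the results they change. Macrophage markers differed in the same way: 9 genes summed to 2867 to 10688 CPM in Sp3-/-, 579 to 2994 in WT and 347 to 2869 in Sp3+/- libraries, with 468-4 and 697-4 the highest of their genotypes. Fewer cells of a type and less RNA per cell cannot be told apart in such bulk libraries.

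In Sp3-/- against WT libraries, 5 of the 9 members that could be tested fell and none rose (edgeR quasi-likelihood test, Benjamini-Hochberg adjusted p below 0.05). The 5 were Hk1, Pfkl, Pfkm, Pgk1 and Ldha. Over all 14025 genes tested 18.5% were called, and 9.77% were called lower, with 1229 genes higher and 1370 lower, or 983 and 1671 under upper-quartile scaling. The libraries of the 2 genotypes did not overlap for these same 5 members, against 31.3% of all genes. The median log2 difference of the 9 members was -0.64, and that of all genes was -0.0032. Leaving out 1 library left 1 member called without WT 685-2, WT 697-3 or Sp3-/- 697-2, where 6.39%, 5.74% and 2.01% of all genes were called. Without WT 697-1, 2 members and 5.48% of all genes were called. With the suffix as a covariate, fitted on all 11 libraries, 3 members and 9.41% of all genes were called. The fit of all 11 libraries without the covariate called 5 members lower, 1 member higher and 28.1% of all genes. Among libraries without a suffix, 3 Sp3-/- and 1 WT, the 5 named members were at -1.89 to -0.46. In the fit of the 7 libraries Pfkl fell most, by 2.23 on the log2 scale, and the other 4 fell by 0.64 to 1.11. Hk2 was the member with a value above 0.

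Sp3-/- against Sp3+/- libraries gave calls for Hk1, Pfkl, Pfkm, Pgk1 and Ldha too, which is 5 of 9 members, all lower, where 25.5% of 14130 genes were called and 12.5% were called lower (1838 higher and 1769 lower, or 1436 and 2171 under upper-quartile scaling). Libraries did not overlap for these 5 members, against 34.0% of all genes, and the median of the 9 members was -0.61. With the suffix as a covariate 1 member and 5.4% of all genes were called. This comparison shares its 3 Sp3-/- libraries with the previous one and is no independent repeat of it. In Sp3+/- against WT libraries 0 of 9 members were called, as were 0 of 14130 genes (0%) by edgeR, DESeq2 or limma-voom. Sp3 itself was not called there either (edgeR, -0.49 ± 0.16, unadjusted p = 0.0131), so that a lack of calls does not show a lack of difference. At an unadjusted p below 0.05, edgeR gave 246 genes including 1 member, DESeq2 gave 281 and limma-voom gave 303, again with 1 member each. The median of the members was -0.04 there, and Pgk1 was the 1 member whose libraries did not overlap, against 1.39% of all genes.

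**Figure D1:**
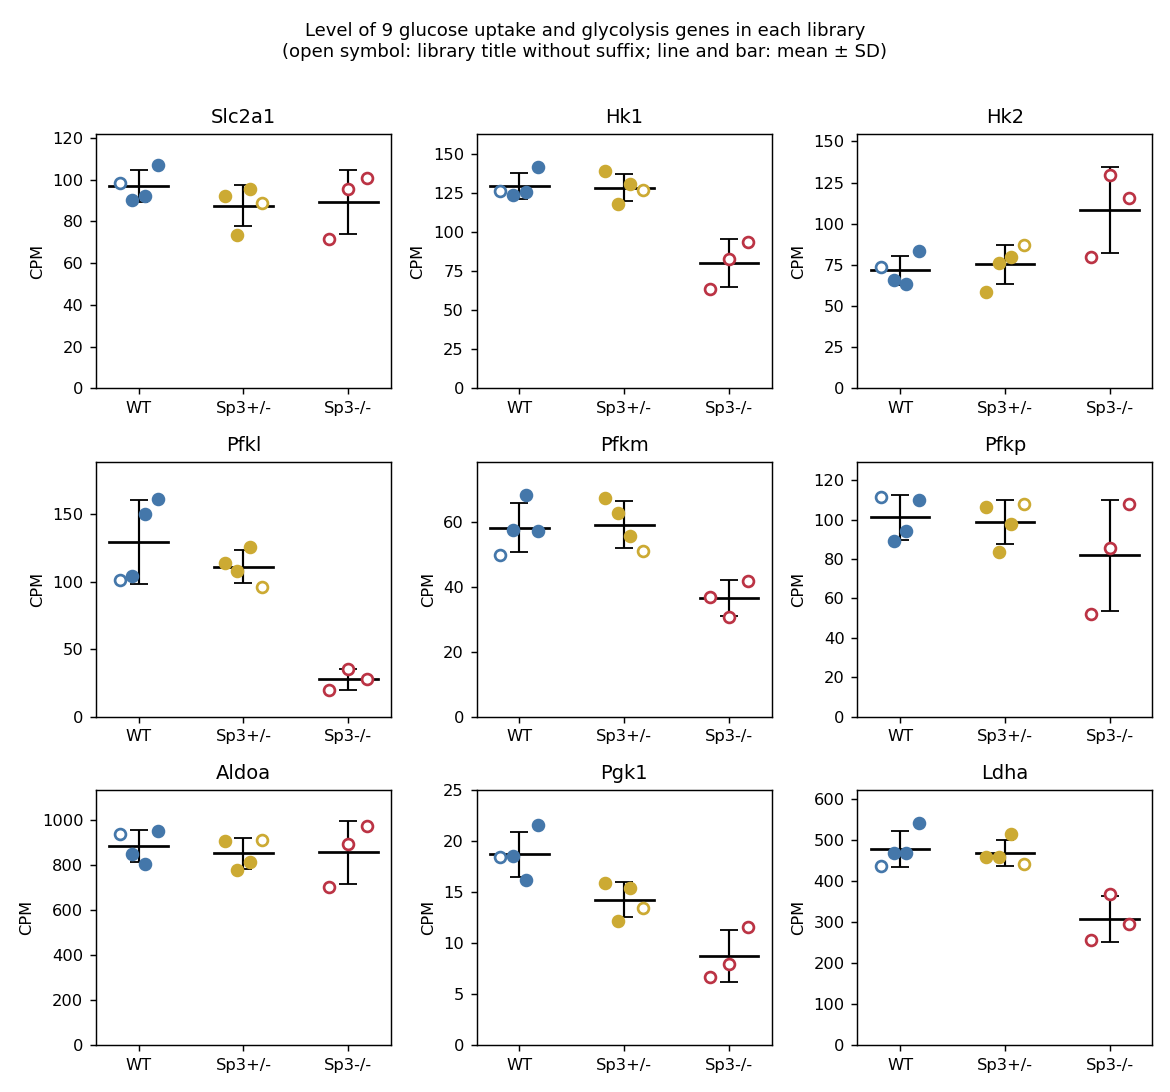
Level of the 9 members with more than 2 reads in a library, in CPM on axes that start at 0, with 1 point per library, open where the library title has no suffix, and lines and bars for the mean and SD of each genotype. The Sp3-/- points lie below all WT points for Hk1, Pfkl, Pfkm, Pgk1 and Ldha. The ranges of the genotypes overlap for Slc2a1, Hk2, Pfkp and Aldoa, where 685-1 is the lowest Sp3-/- point and, but for Hk2, lies below all WT points.

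The promoters were inspected for GC boxes, spelled GGGCGG or its complement CCGCCC, because Sp3 binds such boxes. RefSeq windows from 250 bases before to 50 bases after each start site (GRCm38.p6) were found for all 10 members, 19 windows in all. A GC box stood in 10 of the 19 windows (52.63%) and in 35.66% of 32851 windows of all genes. The Eno1 windows with boxes overlap each other, as do those of Aldoa, so that the same boxes are counted in each. At least 1 window each of Slc2a1, Hk2, Pfkl, Pfkp, Aldoa, Pgk1, Eno1 and Ldha held 2 to 5 boxes, and no window of Hk1 or Pfkm held any. Members that fell were thus found with boxes (Pfkl, Pgk1 and Ldha) and without (Hk1 and Pfkm). Of the 4 windows shown, Pfkl is the member that fell most, Pgk1 has the most boxes, Hk1 fell without a box and Hk2 has boxes and did not fall. GC boxes are in capitals, overlapping boxes run together, and the sequence is that of the gene's strand. The Hk1 window stands at a start site inside the gene as RefSeq bounds it, and the other 3 at the outermost start.
Pfkl, chr10:78009758-78010057, minus strand: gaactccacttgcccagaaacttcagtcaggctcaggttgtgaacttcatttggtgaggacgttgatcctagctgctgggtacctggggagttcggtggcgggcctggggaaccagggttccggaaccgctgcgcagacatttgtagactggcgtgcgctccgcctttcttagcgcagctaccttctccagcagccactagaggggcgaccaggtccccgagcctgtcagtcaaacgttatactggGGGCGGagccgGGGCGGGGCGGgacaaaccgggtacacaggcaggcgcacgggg
Pgk1, chrX:106186850-106187149, plus strand: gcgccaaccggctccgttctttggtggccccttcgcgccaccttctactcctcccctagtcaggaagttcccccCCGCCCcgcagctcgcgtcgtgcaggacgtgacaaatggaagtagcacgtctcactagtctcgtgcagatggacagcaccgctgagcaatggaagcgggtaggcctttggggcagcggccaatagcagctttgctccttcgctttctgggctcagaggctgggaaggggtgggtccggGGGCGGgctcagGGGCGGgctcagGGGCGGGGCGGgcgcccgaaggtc
Hk1, chr10:62340372-62340671, minus strand: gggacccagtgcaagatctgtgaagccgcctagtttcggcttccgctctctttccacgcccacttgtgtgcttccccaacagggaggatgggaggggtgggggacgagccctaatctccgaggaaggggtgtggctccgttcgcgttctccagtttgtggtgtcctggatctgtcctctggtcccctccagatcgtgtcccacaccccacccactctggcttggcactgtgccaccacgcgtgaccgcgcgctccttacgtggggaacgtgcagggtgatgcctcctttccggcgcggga
Hk2, chr6:82774405-82774704, minus strand: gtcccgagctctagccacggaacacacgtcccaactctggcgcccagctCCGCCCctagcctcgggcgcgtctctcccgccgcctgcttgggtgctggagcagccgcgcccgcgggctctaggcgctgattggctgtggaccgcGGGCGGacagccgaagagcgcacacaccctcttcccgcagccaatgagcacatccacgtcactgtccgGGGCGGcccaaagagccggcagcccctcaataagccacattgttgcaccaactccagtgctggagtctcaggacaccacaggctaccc

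In the Pfkl window the 3 boxes lay at -4, 7 and 12 relative to the start site, the last pair overlapping. The Pgk1 window held 1 box at -176 and 4 between 2 and 31, and 2.71% of all windows held as many or more. The hypoxia response core, ACGTG or CACGT on either strand, stood in 9 of the 19 windows (47.37%) and in 19.62% of all windows. The Ldha window that begins at 46845554, downstream of the outermost start of the gene, held 5 cores, the highest number among the members, beside 3 GC boxes. Overlapping matches were counted separately: the cores at -145 and -144 share a CACGTG, as do those at -48 and -47. The E-box CACGTG, which contains the hypoxia core on both strands, was found in 2 of the 19 windows (10.53%) and in 7.15% of all windows. These are matches of letters in a window and say nothing of binding in these cells.

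Slc2a1 encodes GLUT1, the main carrier for basal glucose uptake (chromosome 4, 119108745 to 119137330). Its level was 98.6, 90.4, 92.3 and 107 CPM in WT, 92.4, 73.6, 95.5 and 88.6 CPM in Sp3+/-, and 71.7, 95.4 and 101 CPM in Sp3-/- libraries, in the library order given for Sp3. The 3 genotypes overlapped. The difference between Sp3-/- and WT was -0.12 ± 0.14 (log2, SE; 95% interval -0.45 to 0.20; adjusted p = 0.550).

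Calls were made for other sugar carriers. Slc2a3 encodes GLUT3, a high-affinity carrier known from neurons and leukocytes, and its level was 31.5, 31.2, 17.3 and 15.2 CPM in WT but 151, 90.9 and 47.6 CPM in Sp3-/- libraries. It rose by 2.01 ± 0.42 on the log2 scale (adjusted p = 0.0226). Slc2a4, the insulin-responsive carrier of muscle and fat, fell by 3.22 ± 0.74 (adjusted p = 0.0288) from a mean of 4.92 to 0.549 CPM, and Slc2a10 fell by 0.86 ± 0.12 (adjusted p = 0.0100). Of 14 sugar and monocarboxylate transport genes, 12 were tested, 2 rose and 3 fell, with a median of 0.18, where 18.5% of all genes were called. The remaining calls were Slc2a8 (0.35 ± 0.09, adjusted p = 0.0406) and Bsg (-0.60 ± 0.10, adjusted p = 0.0131), which were named after their values had been seen. Bsg encodes basigin, the partner that brings lactate carriers to the cell surface. Slc2a10 kept its call whichever library was left out, and Bsg lost it without Sp3-/- 697-2 (adjusted p = 0.0640). The call of Slc2a3 was lost without WT 685-2, 697-1 or 697-3 or Sp3-/- 697-2 (adjusted p up to 0.0719), and those of Slc2a4 (up to 0.103) and Slc2a8 (up to 0.114) without any library but WT 468-4. With the suffix as a covariate these 3 were not called either, and Slc2a4 was at -1.67.

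Hk1, the widely expressed hexokinase (chromosome 10, 62268855 to 62379920), was measured at 127, 124, 126 and 142 CPM in WT, 139, 118, 131 and 127 CPM in Sp3+/-, and 63.5, 82.7 and 94.1 CPM in Sp3-/- libraries. Every Sp3-/- library was below every other library. The fall against WT was 0.70 ± 0.15 on the log2 scale, or 1.62-fold (adjusted p = 0.0241), and that against Sp3+/- was 0.69 ± 0.13 (adjusted p = 0.00679). The first call was lost without WT 685-2 (adjusted p = 0.0549), WT 697-1 (0.0617), WT 697-3 (0.0667) or Sp3-/- 697-2 (0.0823), with log2 values from -0.72 to -0.65. With the suffix as a covariate the value was -0.70 (adjusted p = 0.0367) against WT and -0.64 (adjusted p = 0.0622) against Sp3+/-.

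Hk2, the hexokinase induced by growth factors and hypoxia (chromosome 6, 82725025 to 82774454), went the other way in its mean. Its level was 73.5, 65.9, 63.5 and 83.5 CPM in WT, 58.7, 76.2, 79.9 and 86.8 CPM in Sp3+/-, and 79.5, 130 and 116 CPM in Sp3-/- libraries. Sp3-/- libraries 697-2 and 697-5 were above all others, and 685-1 lay within the WT range. The difference against WT was 0.60 ± 0.18 (adjusted p = 0.0591) and that against Sp3+/- was 0.52 ± 0.18 (adjusted p = 0.0506), and neither was called. Without Sp3-/- 685-1 it was called against WT (0.77, adjusted p = 0.0206) and against Sp3+/- (0.71, adjusted p = 0.0115), the latter also without Sp3+/- 697-4 (0.60, adjusted p = 0.0408). Hk2 moved the other way without Sp3-/- 697-2, to 0.46 (adjusted p = 0.182) against WT and 0.39 (adjusted p = 0.189) against Sp3+/-. The suffix as a covariate gave 0.51 (adjusted p = 0.160) against WT and 0.36 (adjusted p = 0.325) against Sp3+/-.

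The split between Hk1 and Hk2 in Sp3-/- libraries lay outside the range of the other libraries. Per kilobase of transcript, Hk2 made up 24.2%, 22.5%, 21.7% and 24.4% of their sum in WT and 18.8%, 26.2%, 25.1% and 27.3% in Sp3+/- libraries, but 40.7%, 46.3% and 40.3% in Sp3-/- libraries. All 3 Sp3-/- libraries were above all 8 others. The mean share was 42.4% ± 3.3 (SD, n = 3) in Sp3-/- and 23.2% ± 1.3 (SD, n = 4) in WT (exact permutation test, two-sided, p = 0.0571, the smallest that 4 against 3 libraries allow; 0.122 after adjustment over 15 tests of shares). Without scaling by length the difference was 21.8 instead of 19.2 percentage points.

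The third hexokinase gene expressed, Hk3, an isoform of myeloid cells, was at 73.0, 19.7, 15.2 and 13.3 CPM in WT, 9.06, 12.2, 13.5 and 67.2 CPM in Sp3+/-, and 63.8, 193 and 179 CPM in Sp3-/- libraries. The high WT and Sp3+/- libraries were 468-4 and 697-4, which also had the highest macrophage marker sums of their genotypes. The difference against WT was 2.26 ± 0.69 (adjusted p = 0.0574), and without WT 468-4 it was 3.18 (adjusted p = 0.00537). Hk3 was not called in the other 6 fits with 1 library left out, where the adjusted p reached 0.161. Its values in 11 other alternatives spanned 0.91 to 3.06, and 4 of these called it.

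**Figure D2:**
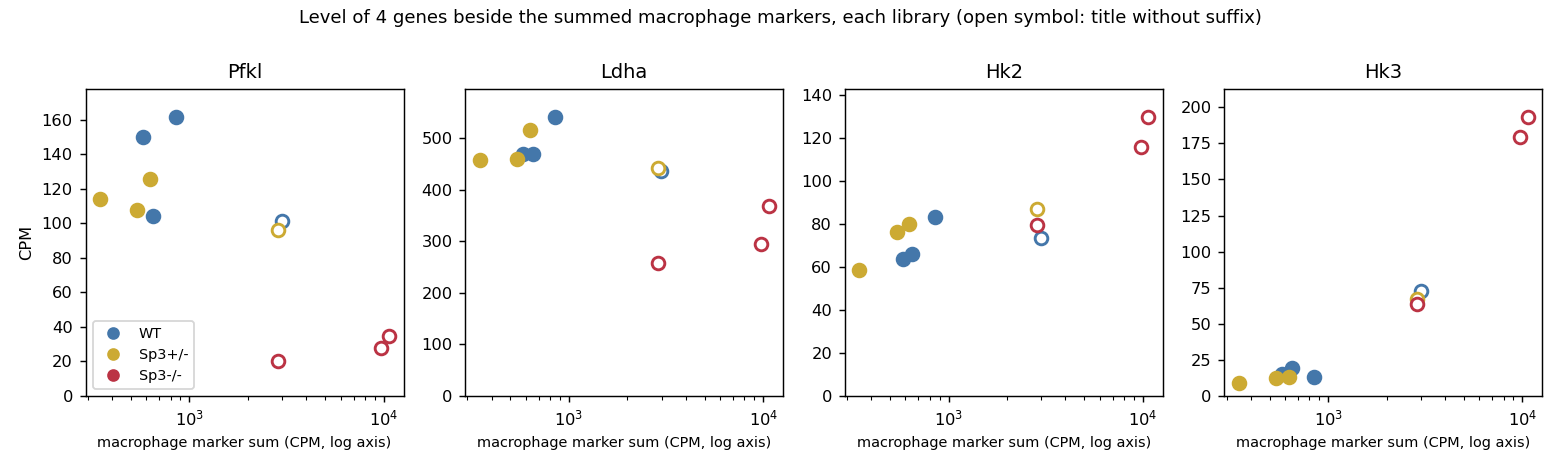
Level of Pfkl, Ldha, Hk2 and Hk3 in CPM against the sum of 9 macrophage markers in CPM on a log axis, with 1 point per library, coloured by genotype and open where the title has no suffix. WT 468-4, Sp3+/- 697-4 and Sp3-/- 685-1 have sums of 2994, 2869 and 2867 CPM and lie together for Hk2 and Hk3 but not for Pfkl and Ldha.

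These 3 libraries with nearly equal macrophage sums, 1 of each genotype and all without a suffix in the title, were compared member by member. Pfkl was at 101 CPM in WT 468-4, 96.4 CPM in Sp3+/- 697-4 and 20.1 CPM in Sp3-/- 685-1. Hk1 was at 127, 127 and 63.5 CPM and Pfkm at 49.9, 51.0 and 37.0 CPM in the same order. Pgk1 was at 18.4, 13.5 and 6.67 CPM, and Ldha at 437, 443 and 257 CPM. Hk2 was at 73.5, 86.8 and 79.5 CPM, so that its high values were found in Sp3-/- 697-2 and 697-5, whose macrophage sums were 10688 and 9738 CPM. Members that were not called were lower in 685-1 as well, with Slc2a1 at 98.6, 88.6 and 71.7 CPM, Pfkp at 112, 108 and 51.9 CPM and Aldoa at 939, 913 and 701 CPM, and 685-1 was the lowest Sp3-/- library for 8 of the 9 members. Pfkl was lower in 685-1 by a larger factor than any member not called, but Hk1, Pfkm and Ldha by a smaller factor than Pfkp. The 3 libraries therefore do not set the called members apart as a group, and they have no replicate within a genotype. The part of macrophage RNA in the members' values was not tested.

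Phosphofructokinase is the main point of control of the pathway, and its liver, muscle and platelet isozymes are encoded by Pfkl, Pfkm and Pfkp. Pfkl (chromosome 10, 77986947 to 78009807) was measured at 101, 104, 150 and 162 CPM in WT, 114, 108, 126 and 96.4 CPM in Sp3+/-, and 20.1, 35.04 and 27.6 CPM in Sp3-/- libraries. The highest Sp3-/- value was well under the lowest of the 8 others. Pfkl fell 4.70-fold against WT (2.23 ± 0.26 on the log2 scale, adjusted p = 0.00764) and 4.03-fold against Sp3+/- (2.01 ± 0.22, adjusted p = 0.00103). It stayed called against WT whichever of the 7 libraries was omitted, with values from -2.44 to -2.05, and with the suffix as a covariate (-1.96, adjusted p = 0.00679). Among libraries without a suffix, 3 Sp3-/- and 1 WT, the value was -1.89 (adjusted p = 0.301), where no gene was called. Sp3, the deleted gene itself, fell by 2.30 ± 0.21 (adjusted p = 0.00611).

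Pfkm (chromosome 15, 98092589 to 98132447) was at 49.9, 57.7, 68.3 and 57.4 CPM in WT, 67.6, 62.9, 55.8 and 51.0 CPM in Sp3+/-, and 37.0, 30.8 and 42.0 CPM in Sp3-/- libraries. The Sp3-/- libraries were again the lowest 3 of 11. Pfkm fell by 0.68 ± 0.15 against WT (adjusted p = 0.0269) and by 0.70 ± 0.15 against Sp3+/- (adjusted p = 0.0104). The call against WT was lost without WT 685-2 (adjusted p = 0.0687), WT 697-1 (0.0661), WT 697-3 (0.0682), Sp3-/- 685-1 (0.0535) or Sp3-/- 697-2 (0.0943), and with the suffix as a covariate (-0.49, adjusted p = 0.0852). The covariate also ended the call against Sp3+/- (-0.46, adjusted p = 0.118). The RefSeq gene overlaps that of Senp1, and the strand setting of the counting is not given in the sources used here.

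Pfkp (chromosome 13, 6579874 to 6649060) was at 112, 89.0, 94.1 and 110 CPM in WT, 106, 83.4, 97.8 and 108 CPM in Sp3+/-, and 51.9, 85.3 and 108 CPM in Sp3-/- libraries. Library 685-1 was low and 697-5 lay among the WT libraries. The difference against WT was -0.31 ± 0.24 (95% interval -0.87 to 0.26, adjusted p = 0.392), and that against Sp3+/- was -0.27 ± 0.21 (adjusted p = 0.368). Pfkp overlaps Pitrm1 in RefSeq.

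By share of the step, Pfkl supplied 39.2%, 42.0%, 48.4% and 49.7% of phosphofructokinase reads per kilobase in WT and 18.7%, 23.7% and 15.9% in Sp3-/- libraries, with means of 44.8% ± 5.1 (SD, n = 4) and 19.4% ± 3.9 (SD, n = 3). The share of Pfkp was 34.1% ± 5.1 in WT and 53.4% ± 6.8 in Sp3-/-, and neither share overlapped between these genotypes (exact permutation test, two-sided, p = 0.0571 each, the smallest possible; 0.122 adjusted). The share of Pfkm was 21.1% ± 2.6 and 27.2% ± 7.3 and overlapped (exact p = 0.229; 0.381 adjusted). Sp3+/- libraries, at 41.7% ± 3.2 for Pfkl and 35.4% ± 4.0 for Pfkp (SD, n = 4), overlapped with WT for each of the 3 shares. Pfkl was the most abundant of the 3 in WT and the least abundant in Sp3-/- by mean level per kilobase. This order did not hold in each library. In WT 468-4 the share of Pfkp was 41.0% and that of Pfkl 39.2%, and in Sp3-/- 697-2 Pfkl was at 23.7% and Pfkm at 21.4%.

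**Figure D3:**
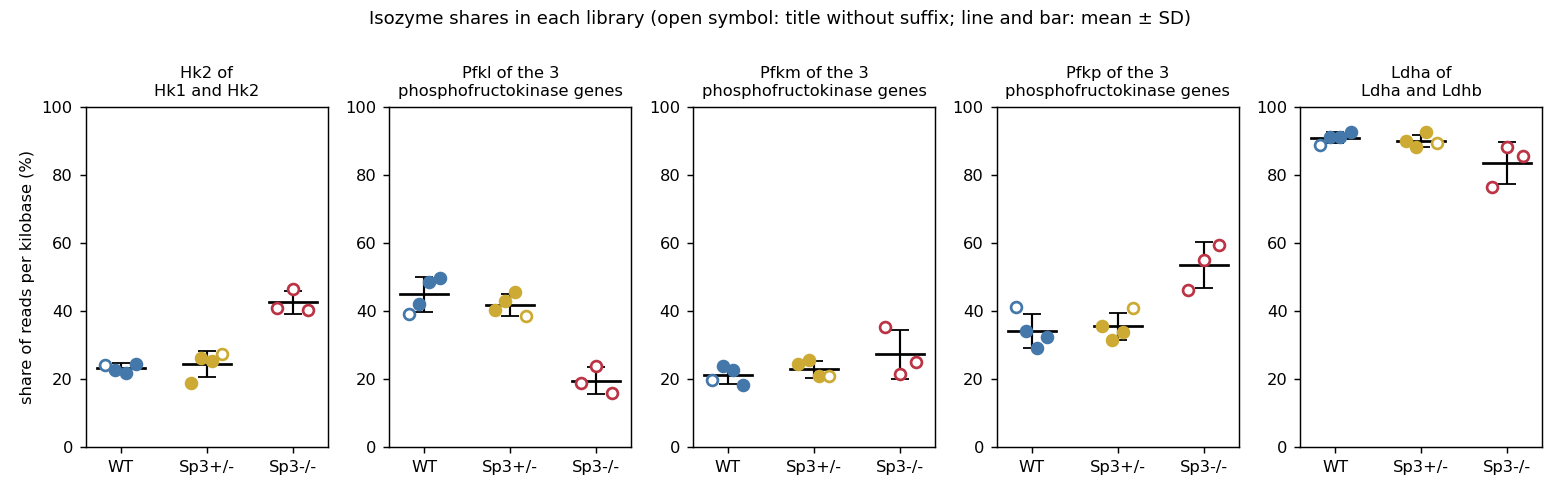
Share of each isozyme in its step, in percent of reads per kilobase of transcript on axes from 0 to 100, with 1 point per library, open where the title has no suffix, and lines and bars for the mean and SD. The Sp3-/- libraries lie above all others for Hk2 and Pfkp and below all others for Pfkl.

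Aldoa encodes the aldolase that cleaves fructose 1,6-bisphosphate (chromosome 7, 126795234 to 126800994). It was at 939, 849, 803 and 952 CPM in WT, 907, 777, 811 and 913 CPM in Sp3+/-, and 701, 892 and 975 CPM in Sp3-/- libraries. The 3 genotypes overlapped widely. The difference between Sp3-/- and WT was -0.05 ± 0.15 (95% interval -0.40 to 0.30, adjusted p = 0.839).

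Pgk1, the first ATP-forming enzyme of the pathway and X-linked (chromosome X, 106187100 to 106203699), was at 18.4, 18.6, 16.2 and 21.6 CPM in WT, 15.9, 12.2, 15.5 and 13.5 CPM in Sp3+/-, and 6.67, 7.97 and 11.6 CPM in Sp3-/- libraries. The ranges of the 3 genotypes followed each other without overlap. Pgk1 fell by 1.11 ± 0.22 against WT (2.16-fold, adjusted p = 0.0197) and by 0.72 ± 0.20 against Sp3+/- (adjusted p = 0.0249). The difference of Sp3+/- from WT was -0.40 ± 0.18 (unadjusted p = 0.0449, adjusted p = 1.00). The call against WT was lost without WT 685-2 (adjusted p = 0.0528), WT 697-3 (0.0581) or Sp3-/- 697-2 (0.0818), and was kept with the suffix as a covariate (-1.11, adjusted p = 0.0321). The call against Sp3+/- was lost without Sp3+/- 468-3 (adjusted p = 0.0594), Sp3+/- 685-7 (0.0656), Sp3-/- 685-1 (0.0686) or Sp3-/- 697-2 (0.0960), and with the covariate (-0.65, adjusted p = 0.151).

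Pgk1 levels rest on a small part of the gene. Of the 1776 windows of 50 bases, the read length, along its transcript, 1650 (92.9%) had an exact copy elsewhere in the genome (GRCm39), as processed pseudogenes give, and 30.1% to 33.7% of each library were alignments that were not unique and were left uncounted. Between 116 and 728 reads were counted for Pgk1 per library. Divided by its 126 windows without a copy, the WT level was 148 ± 17.5 CPM per kilobase of such windows (SD, n = 4), against 10.3 ± 1.21 CPM per kilobase of transcript. The same copies were absent or rare for Slc2a1, Hk2 and Pfkp (0%), Hk1 (0.0473%), Pfkl (0.346%) and Pfkm (0.912%), and more common for Aldoa (15.2%) and Ldha (33.8%).

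Eno1, the main enolase gene of most tissues (chromosome 4, 150236708 to 150248879), had 0 reads in 10 libraries and 2 reads in WT 468-4. It passed no filter, was not tested and is given no fold. Exact copies covered 63.6% of its windows, so that 816 windows had none, and no other RefSeq gene overlaps it. Why these windows gave no reads was not tested, and the value says nothing of the level of the enzyme in the cells. Its muscle isozyme gene Eno3 was at 53.5, 71.7, 93.6 and 126 CPM in WT, 78.3, 68.4, 88.7 and 81.8 CPM in Sp3+/-, and 12.8, 10.6 and 12.9 CPM in Sp3-/- libraries, without overlap. Eno3 fell by 2.84 ± 0.31 against WT (7.17-fold, adjusted p = 0.00713).

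Ldha encodes the subunit that favours the reduction of pyruvate to lactate (chromosome 7, 46842274 to 46855627). It was at 437, 470, 469 and 541 CPM in WT, 458, 459, 516 and 443 CPM in Sp3+/-, and 257, 368 and 296 CPM in Sp3-/- libraries. The Sp3-/- libraries were below all others. Ldha fell by 0.64 ± 0.15 against WT (1.56-fold, adjusted p = 0.0285) and by 0.61 ± 0.12 against Sp3+/- (adjusted p = 0.00815). The call against WT was lost without WT 685-2 (adjusted p = 0.0634), WT 697-1 (0.0705), WT 697-3 (0.0752), Sp3-/- 697-2 (0.0523) or Sp3-/- 697-5 (0.0705), and with the suffix as a covariate (-0.54, adjusted p = 0.0622). The call against Sp3+/- was likewise lost with the covariate (-0.52, adjusted p = 0.0853). Its partner Ldhb, whose subunit favours the reverse reaction, differed by 0.30 ± 0.18 (adjusted p = 0.251). Ldha made up 83.4% ± 6.1 (SD, n = 3) of their sum per kilobase in Sp3-/- and 90.8% ± 1.6 (SD, n = 4) in WT libraries, without overlap (exact permutation test, two-sided, p = 0.0571; 0.122 adjusted). Without Sp3-/- 685-1 the difference went from -7.43 to -3.999 percentage points, and Sp3-/- and Sp3+/- libraries overlapped (exact p = 0.114; 0.214 adjusted).

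**Figure D4:**
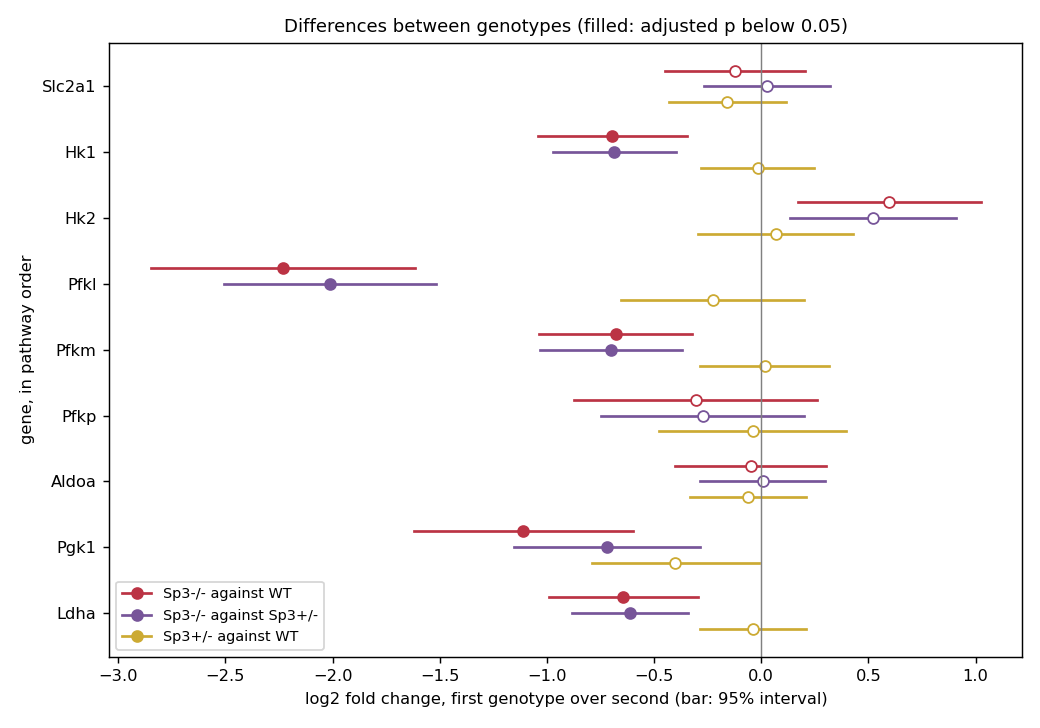
Log2 fold change of the 9 tested members with 95% intervals in the 3 comparisons of genotypes, filled where the adjusted p was below 0.05. Sp3-/- values are filled and below 0 for Hk1, Pfkl, Pfkm, Pgk1 and Ldha in both comparisons, and every value of Sp3+/- against WT is open.

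In level per kilobase of transcript the members spanned a wide range. In WT libraries the order was Aldoa (586 ± 47.4 CPM per kilobase, SD, n = 4), Ldha (302 ± 27.7), Pfkl (31.5 ± 7.55), Hk1 (30.3 ± 1.93), Pfkp (23.5 ± 2.62), Slc2a1 (21.9 ± 1.71), Pfkm (14.6 ± 1.90), Pgk1 (10.3 ± 1.21) and Hk2 (9.18 ± 1.16). Neighbours that overlapped were Pfkl and Hk1, Pfkp and Slc2a1, and Pgk1 and Hk2. In Sp3-/- libraries Pfkl was at 6.73 ± 1.83 CPM per kilobase (SD, n = 3), below Hk2 at 13.9 ± 3.33 and Pfkm at 9.15 ± 1.40 and above Pgk1 at 4.79 ± 1.41. There the range of Pfkl overlapped those of Pfkm and Pgk1. The place of Pgk1 turned when levels were divided by windows without a copy: it was then at 148 CPM per kilobase in WT and 69.4 in Sp3-/-, above Pfkl at 32.0 and 6.83, so that its rank among the members is uncertain. Within Sp3-/-, library 685-1 was the lowest for 8 of the 9 members and 697-5 the highest for 6, and within WT, 697-3 was the highest for 7.

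Of 18 genes for other steps and isozymes, 11 were tested, 0 rose and 2 fell in Sp3-/- against WT, with a median of -0.09. That number of calls is near the 18.5% called over all genes. The 2 were Eno3 and Tpi1. Tpi1 encodes triose phosphate isomerase and fell by 0.49 ± 0.10 (adjusted p = 0.0238). Eno3 kept its call whichever library was left out, and Tpi1 lost it without any library but WT 468-4 and Sp3-/- 685-1 (adjusted p up to 0.0660) and with the suffix as a covariate (-0.36, adjusted p = 0.0576). Gpi1 (-0.07 ± 0.09), Gapdh (-0.11 ± 0.28), Pgam1 (-0.09 ± 0.19) and Pkm (0.07 ± 0.16) were not called, with adjusted p from 0.616 to 0.799. Pkm encodes pyruvate kinase and was at 539 ± 52.4 CPM per kilobase in WT (SD, n = 4), near Aldoa, whereas Gapdh and Pgam1, with copies of 85.6% and 93.6% of their windows, were at 1.38 ± 0.254 and 8.62 ± 1.31. The lactate carrier genes Slc16a1 (1.21 ± 0.40, adjusted p = 0.0709) and Slc16a3 (-1.03 ± 0.31, adjusted p = 0.0558) were not called. Slc16a1 was called without Sp3-/- 697-5 (1.54, adjusted p = 0.0360) and Slc16a3 without WT 468-4 (-1.20, adjusted p = 0.0183). Each was uncalled in its other 6 fits with 1 library left out, with adjusted p up to 0.193 and 0.137. Over these leave-out fits Slc16a1 spanned 0.59 to 1.54 and Slc16a3 spanned -1.36 to -0.85.

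**Figure D5:**
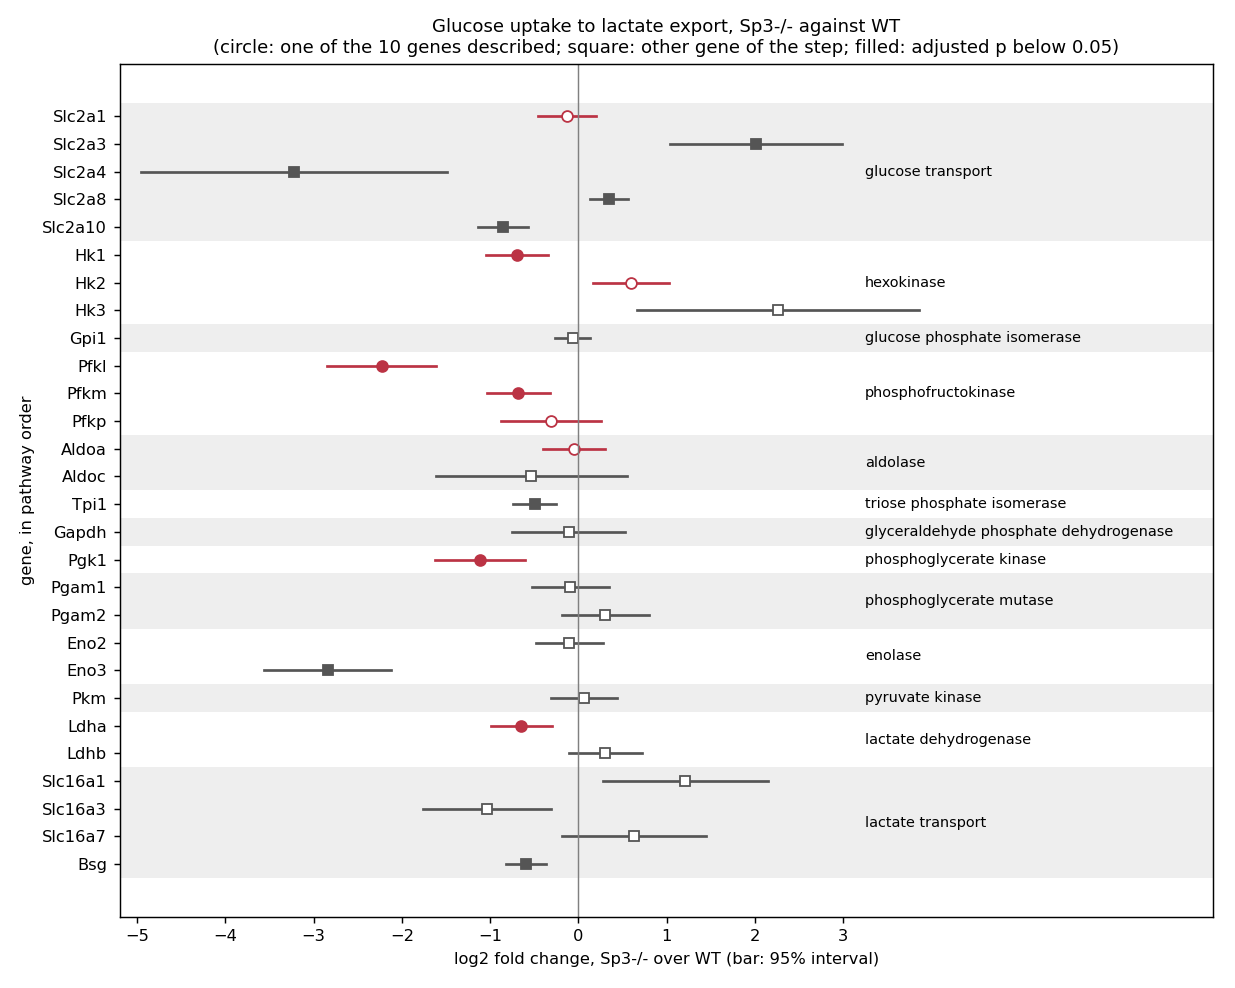
Log2 fold change in Sp3-/- against WT with 95% intervals for genes from glucose transport to lactate export, in pathway order, with circles for the genes described, squares for the others and filled symbols where the adjusted p was below 0.05. Filled symbols are found below 0 at the hexokinase, phosphofructokinase, triose phosphate isomerase, phosphoglycerate kinase, enolase, lactate dehydrogenase and lactate transport steps, the last for Bsg. Among glucose carriers they are found on both sides of 0.

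Of 18 genes that regulate glycolytic flux or pyruvate entry, 15 were tested, 1 rose and 2 fell, with a median of 0.03. That number of calls is near the 18.5% called over all genes. Pfkfb3 encodes an enzyme that makes fructose 2,6-bisphosphate, the strongest activator of phosphofructokinase, and rose by 0.66 ± 0.12 (adjusted p = 0.0151). Pdk1, a kinase that shuts off pyruvate dehydrogenase, fell by 0.71 ± 0.20 (adjusted p = 0.0442), and Mpc2, a subunit of the mitochondrial pyruvate carrier, fell by 0.45 ± 0.12 (adjusted p = 0.0434). The call of Pfkfb3 was lost without Sp3-/- 697-2 (adjusted p = 0.0646), that of Pdk1 without any library but WT 468-4 (up to 0.112), and that of Mpc2 without any library but WT 697-1 (up to 0.153). Pdk1 was not called with the suffix as a covariate (-0.54, adjusted p = 0.152).

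Of 22 genes of the hypoxia pathway and its other targets, all were tested, 2 rose and 5 fell, with a median of -0.12, where 18.5% of all genes were called. Hif1a, the oxygen-regulated subunit of HIF-1, was at 305, 375, 527 and 477 CPM in WT and 226, 264 and 224 CPM in Sp3-/- libraries and fell by 0.83 ± 0.20 (adjusted p = 0.0320). Adm, which encodes adrenomedullin, fell by 1.91 ± 0.43 (adjusted p = 0.0279), and P4ha2, a collagen prolyl hydroxylase, fell by 1.42 ± 0.14 (adjusted p = 0.00611). Bhlhe40, a transcriptional repressor, rose by 0.84 ± 0.18 (adjusted p = 0.0255). Vegfa, the growth factor most often used as a readout of HIF, is named after its value was seen and was not called (-0.19 ± 0.17). P4ha2 kept its call whichever library was left out. The calls of Hif1a (adjusted p up to 0.0869) and Adm (up to 0.0833) were lost without any library but WT 468-4, and that of Bhlhe40 without WT 697-3 or Sp3-/- 697-2 or 697-5 (up to 0.0894). With the suffix as a covariate Hif1a was at -0.46 (adjusted p = 0.116) and Adm at -1.22 (adjusted p = 0.0802).

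Calls were also made among genes of branches that leave glycolysis, where 18.5% of all genes were called. In the pentose phosphate pathway 2 of 7 genes rose and 0 fell, with a median of 0.39, namely G6pdx (0.92 ± 0.17, adjusted p = 0.0170), which encodes the first and rate-setting enzyme, and Pgd (0.83 ± 0.23, adjusted p = 0.0433). G6pdx was at 115, 95.9, 80.1 and 83.9 CPM in WT and 145, 179 and 207 CPM in Sp3-/- libraries. In glycogen metabolism 0 of 10 rose and 3 fell, with a median of -0.14: Pygb, a glycogen phosphorylase (-0.72 ± 0.13, adjusted p = 0.0155), Gys1, a glycogen synthase (-0.70 ± 0.19, adjusted p = 0.0422), and Pgm2 (-0.33 ± 0.08, adjusted p = 0.0349). In serine synthesis 1 of 5 fell, Psat1 (-1.03 ± 0.26, adjusted p = 0.0375). Of 9 transcription factors of glycolytic genes, 8 were tested and 3 fell, Sp3, Hif1a and Myc (-0.64 ± 0.15, adjusted p = 0.0317), whereas Sp1 differed by 0.26 ± 0.11 (adjusted p = 0.123). None of these calls but that of Sp3 held without Sp3-/- 697-2. Those of Pgd, Gys1, Pgm2, Psat1 and Myc were also lost without WT 697-1, WT 697-3 or Sp3-/- 697-5, that of G6pdx without WT 697-1 or 697-3, those of Pgd, Gys1, Pgm2 and Psat1 without WT 685-2, and those of Pgm2, Psat1 and Myc without Sp3-/- 685-1, with adjusted p of at most 0.134. With the suffix as a covariate Pgd (0.44), Gys1 (-0.52), Pgm2 (-0.30) and Psat1 (-0.55) were not called.

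Markers of other cell types moved with the genotype beside these results, where 18.5% of all genes were called. Of 9 macrophage markers in the files 4 rose and 0 fell in Sp3-/- against WT, with a median of 2.33, and the largest were Lyz2 (2.73 ± 0.73, adjusted p = 0.0423), C1qa (2.70 ± 0.61, adjusted p = 0.0270) and Mrc1 (2.35 ± 0.58, adjusted p = 0.0338). These 3 calls were lost without any library but WT 468-4 and Sp3-/- 685-1 (adjusted p up to 0.129) and with the suffix as a covariate, where the values were 1.37, 1.52 and 1.47. Epithelial markers summed to 55.7 to 156 CPM in Sp3-/- and 20.8 to 46.6 CPM in WT, with 3 of 7 higher, while the lung epithelial markers Sftpc and Nkx2-1 had means of 0.0502 and 0.103 CPM in Sp3-/-. Mesothelial markers summed to 1172 to 4167 against 526 to 1117 CPM, with 2 of 5 higher. Mesenchyme markers summed to 7767 to 20766 CPM in Sp3-/- and 13604 to 22517 CPM in WT, with 1 higher and 2 lower of 10. They were thus present in all libraries, beside unequal macrophage markers. Macrophage and mesenchyme sums were 2867 and 20766 CPM in Sp3-/- 685-1, 10688 and 14463 CPM in 697-2, and 9738 and 7767 CPM in 697-5. Endothelial markers summed to 65.8 to 120 against 33.5 to 91.1 CPM, with 1 of 6 higher, and erythroid markers to at most 13.1 CPM in Sp3-/-, with 1 of 1 tested higher and Hbb-bs at 0. Of 13 proliferation genes 0 were called, with a median of -0.99 and 211 to 431 CPM against 266 to 766 CPM. The part of these cell types and of proliferation in the members' values was not tested.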

How the data were processed

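RNA-seq reads were checked with FastQC 0.10.1, aligned to the mouse genome (mm10) with STAR 2.4.5a and assigned to genes with htseq-count by the authors, who deposited raw counts per gene symbol for each of the 11 libraries. The gene annotation and strand option of the counting are not given in the sources used here. Rows that name no gene held 38.4% to 40.9% of the tally and were left out. Libraries were grouped by the genotype in the labels, and none were combined.

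Here, the counts were filtered to CPM above 1 in at least 1 library of the fit, TMM-scaled and tested with the quasi-likelihood test of edgeR 4.0.16 (R 4.3.3, robust settings), with Benjamini-Hochberg adjustment over all tested genes and a threshold of 0.05. Sp3-/- against WT was fitted on the 7 libraries of those genotypes, and comparisons with Sp3+/- on all 11. The fit with the suffix as a covariate used all 11 in each comparison. Errors of log2 differences are standard errors. Library depth was 9849111 to 59297495 counted reads, and the fitted errors hold both counting error and the spread between libraries. Isozyme shares used reads per kilobase of transcript and exact permutation tests (scipy 1.17.1). Scripts were tested on simulated counts. Alternatives were DESeq2 1.42.0, limma-voom (limma 3.58.1) with and without a consensus correlation, library size alone, upper quartile, other filters, a block for the first number in the label, a covariate for the title suffix, suffix-free libraries alone, other libraries in the fit, and omission of each library in turn.

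Promoter windows and coordinates came from RefSeq tables on GRCm38.p6, the assembly behind mm10. Transcript lengths and copies of 50-base windows came from GRCm39, and no coordinate was carried between builds. The members and gene lists were chosen with earlier results of these data known. Named genes were the members, up to 3 called genes of each list with the largest difference in Sp3-/- against WT, genes of the same enzymatic steps, Sp3, Sp1 and Hif1a.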

Additional observations from a re-analysis of the deposited data

Results flagged for a closer look

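Of 18 sets of 4 libraries examined, 9 members in WT and in Sp3+/-, 1 had a value far from the rest by the Dixon ratio, the gap of an extreme value to its nearest neighbour over the whole range. Hk1 in WT library 697-3 was at 142 CPM, and the other 3 WT libraries were at 124 to 127 CPM, which gave a ratio of 0.866, above the 95% critical value for 4 values. Chance flags about 1 in 20 such sets.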

How the results depend on the processing

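In Sp3-/- against WT the number of genes called was 2599, and it was 4297 with DESeq2, 4031 with the first label number as a replicate block, 1329 with the title suffix as a covariate, 0 among libraries without a suffix and 3977 with all 11 libraries in the fit. The fit with the suffix used all 11 libraries too, so that its 1329 genes stand against 3977 rather than 2599. Leaving out 1 library gave 282 to 4179 genes and 1 to 5 members. The 5 members called became 3 with the suffix and 0 without suffixed libraries, where the median of the members was -0.46. In Sp3-/- against Sp3+/-, 3607 genes became 763 with the suffix and 0 among libraries without one, or 1490 to 3706 with 1 library left out, and members called became 1 and 0. With 1 WT and 1 Sp3+/- library, the smaller set assumes that a lone library varies like the 3 Sp3-/- libraries, and fewer samples alone lower its power. The cause of the other shifts was not tested.

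Pairing of libraries by the first label number was mixed. Of pairs with the same number 7 of 14, and of pairs with different numbers 10 of 26, had deviations correlated above 0.1. The medians were 0.0994 and -0.0437, and 2 of 11 libraries correlated best with their own number. Pairs numbered 685 were all above 0.1, at 0.106 to 0.293. Those numbered 697 spanned -0.617 to 0.344, and the pair numbered 468 was at -0.408. With this replicate block Hk2 was called in Sp3-/- against WT (0.58, adjusted p = 0.0422), as it was with DESeq2, library size alone and all 11 libraries. Against Sp3+/- the block gave 0.38 for Hk2 (adjusted p = 0.134), which was not called. In Sp3+/- against WT the block turned Hk1 to 0.0373 and Pfkp to 0.0656, the suffix turned Pfkm to -0.0375, and the libraries without a suffix gave Hk1 at 0.0132 and Ldha at 0.0264. In Sp3-/- against Sp3+/-, Slc2a1 and Aldoa turned to -0.0464 and -0.0667 with upper-quartile scaling, -0.0314 and -0.0325 with the block, and -0.0101 and -0.111 without suffixed libraries, and Aldoa to -0.0601 with the suffix. In Sp3-/- against WT, Pkm turned to -0.0065 with upper-quartile scaling and -0.0736 with the suffix, Gapdh to 0.168 and Vegfa to 0.0908 with the suffix, and Gapdh to 0.252 and Vegfa to 0.0316 without suffixed libraries. None of these values passed the test. With 1 library left out, values that changed sign spanned -0.235 to 0.0076 (Slc2a1), -0.170 to 0.0724 (Aldoa), -0.235 to 0.0391 (Gapdh) and -0.0336 to 0.192 (Pkm) in Sp3-/- against WT, -0.118 to 0.136 (Aldoa) and -0.0871 to 0.167 (Slc2a1) in Sp3-/- against Sp3+/-, and -0.0637 to 0.0274 (Hk1), -0.0104 to 0.163 (Hk2), -0.083 to 0.0213 (Ldha), -0.06 to 0.101 (Pfkm) and -0.0936 to 0.0371 (Pfkp) in Sp3+/- against WT.

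Of 25 other named genes called in Sp3-/- against WT, 11 were called with the suffix and 4 whichever of the 7 libraries was omitted. Over all alternatives, 1001 of 1250 values of single genes and isozyme shares counted as unchanged. For genes this meant the same direction and side of the threshold. For shares it meant a move smaller than the pooled SD within genotypes, whatever the sign and without a new test. The Pfkp share in Sp3+/- against WT, for instance, went from 1.34 to -0.47 percentage points without Sp3+/- 697-4. Low read numbers limit Eno1, with at most 2 reads, and Pgk1, with 116 to 728 reads per library. Why Eno1 had so few was not tested, and 92.9% of the Pgk1 windows had copies elsewhere.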
